A study of Mus musculus with 6 samples.

Results

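The 40 genes described here are imprinted genes of the mouse, a fixed list of symbols looked up among the 49452 genes of the RNA-seq table of Sp8 null and wild-type forelimb ectoderm. Of these, 34 were found by the symbol in the table, and 6 noncoding RNAs without a symbol there (H19, Meg3, Rian, Mirg, Kcnq1ot1 and Airn) were found by Ensembl identifier. The table held 6 libraries of limb bud ectoderm, the epithelium that covers the early limb, taken at E10.5. The 3 Sp8 null embryos came from matings of Sp8 heterozygotes that carry an allele named Sp8-Cre-ERT2, and the 3 wild-type embryos from matings within C57BL/6. The labels give C57BL6J as the background of both genotypes. Each library was the ectoderm of both forelimbs of 1 embryo, peeled off after trypsin, with no pooling of embryos. The Sp8 protein, a DNA-binding zinc finger factor, acts in this epithelium. The question was which imprinted transcripts differed between Sp8 null and wild-type embryos and how much single embryos varied. Genotype and mating differed together in these embryos. A difference between genotypes therefore cannot be told apart from one between matings or litters, which was not tested.

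An imprinted gene is transcribed mainly from the chromosome inherited from a single parent, because DNA methylation placed in the egg or the sperm marks the parental copies of a control region differently. Most imprinted genes lie in clusters, where paternally and maternally expressed genes, protein-coding and noncoding, sit side by side and share a control region. Many of them act on growth of the embryo and placenta: paternally expressed genes such as Igf2 tend to promote it and maternally expressed genes such as Cdkn1c, Grb10 and Igf2r tend to restrain it. The values used here add up both parental copies, so they give levels and not the parent of origin. The terms paternal and maternal below are background knowledge of each gene and were not measured.

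Levels are given as FPKM, fragments scaled by transcript length and by library size, which can be compared between genes of different length. A gene was tested if it had at least 1 FPKM in at least 3 libraries. Differences are log2 fold changes of Sp8 null against wild type on the scale of log2(FPKM + 1), with limma p-values adjusted by Benjamini-Hochberg over all 12133 tested genes. Genes under 0.05 are called. Where values are given per embryo, they are those of Sp8 null embryos 1, 2 and 3 and then of wild-type embryos 1, 2 and 3. The depth of the libraries, taken as a ratio to that of wild-type embryo 1, ran from 0.842 to 1.033. Sp8 itself was at 0.766, 0.460 and 1.14 FPKM in Sp8 null embryos 1, 2 and 3 and at 8.35, 10.974 and 13.5 FPKM in wild-type embryos 1, 2 and 3, so each library followed its label. All 17 markers of limb ectoderm and surface epithelium passed the filter, with summed levels of 978 to 1264 FPKM in Sp8 null and 1197 to 1325 FPKM in wild type. The 18 limb mesenchyme markers summed to 205 to 341 FPKM in Sp8 null and 189 to 255 FPKM in wild type, and none of them was at 0 in every library. Some of these markers were themselves called by limma: in the ectoderm list Epcam (-0.53), Wnt7a (-0.98) and En1 (-1.71) were lower and Tfap2a (0.52) higher in Sp8 null (log2 fold changes), 4 of 17 tested. In the mesenchyme list, Msx1 (-1.23) and Sall1 (-1.53) were lower and Lmx1b (1.07) higher, 3 of 14 tested. The shares called in the ectoderm and mesenchyme lists were 23.5% and 21.4%, against 6.83% of all tested genes. None of the tested erythroid, endothelial and neural crest markers was called by limma or had an unadjusted p under 0.05, and no macrophage marker passed the filter.

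Promoter sequences from RefSeq (GRCm38.p6) were matched by symbol for 32 of the 40 genes. Those without an entry were Cdkn1c, Dcn, H19, Impact, Peg10, Rtl1, Sgce and Trappc9. Each window runs from 250 bases before to 50 bases after a transcription start. The windows of Zim1, Peg3 and Mest are printed because these genes hold the largest fall, a neighbour of that gene which was not called, and the largest called rise. CG dinucleotides, the sites at which imprinting methylation is placed, are in capitals.

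Zim1 (chr7:6696383-6696682, minus strand): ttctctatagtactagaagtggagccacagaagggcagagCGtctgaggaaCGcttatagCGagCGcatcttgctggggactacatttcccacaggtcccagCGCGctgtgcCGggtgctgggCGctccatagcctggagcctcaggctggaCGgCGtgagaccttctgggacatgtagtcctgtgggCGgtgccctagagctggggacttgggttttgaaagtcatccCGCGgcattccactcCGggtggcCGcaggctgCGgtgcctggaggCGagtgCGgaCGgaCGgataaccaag
Peg3 (chr7:6730370-6730669, minus strand): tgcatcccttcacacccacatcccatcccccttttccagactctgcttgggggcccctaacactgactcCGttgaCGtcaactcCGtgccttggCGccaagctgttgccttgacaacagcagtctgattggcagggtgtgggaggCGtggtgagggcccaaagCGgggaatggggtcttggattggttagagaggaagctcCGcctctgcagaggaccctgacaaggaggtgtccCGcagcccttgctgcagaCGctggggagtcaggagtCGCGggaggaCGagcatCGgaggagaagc
Mest (chr6:30737800-30738099, plus strand): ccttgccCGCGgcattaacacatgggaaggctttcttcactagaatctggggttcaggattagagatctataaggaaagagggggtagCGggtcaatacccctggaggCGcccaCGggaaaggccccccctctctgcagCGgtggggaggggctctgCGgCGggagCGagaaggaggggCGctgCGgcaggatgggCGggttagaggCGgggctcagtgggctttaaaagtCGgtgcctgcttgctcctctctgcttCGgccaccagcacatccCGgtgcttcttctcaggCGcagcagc

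The windows hold 20, 13 and 17 CG dinucleotides for Zim1, Peg3 and Mest. Over the 48 windows of the imprinted genes the median was 15.5, and over all 32851 windows of the table it was 7. Usp29 starts head to head with Peg3, and 263 of the 300 bases of its window are the same DNA read on the other strand. The hexamer TGCCGC, bound when methylated by the imprint-protecting zinc finger protein ZFP57, was searched on both strands (as TGCCGC and GCGGCA). It occurred in 12 of the 48 windows (25.0%), belonging to 11 genes, and in 11.6% of all windows. The hexamer itself holds a CG, and the imprinted windows are richer in CG, so these shares are not matched for CG number. Both Mest windows that start 3 bases apart are among the 12. The printed Zim1 window has 1 match, the Mest window 2 and the Peg3 window none, which says only that these letters are not in that window. Mest has 3 windows in the table. The window printed and another that starts 3 bases further on hold the same numbers of both, and the window at chr6:30733256-30733555 has 8 CG dinucleotides and 0 matches. The called genes H19 and Mest also contain a miRNA each, whose seed (bases 2 to 8) is in capitals. The mature forms were not measured in these libraries of polyadenylated RNA.

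miR-675-5p (H19, chr7:142577112-142577133, minus strand): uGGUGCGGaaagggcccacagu
miR-675-3p (H19, chr7:142577078-142577099, minus strand): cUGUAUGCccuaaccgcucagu
miR-335-5p (Mest, chr6:30741314-30741336, plus strand): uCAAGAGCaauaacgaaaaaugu
miR-335-3p (Mest, chr6:30741354-30741375, plus strand): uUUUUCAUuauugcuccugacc

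No seed is shared among these 4 sequences.

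The imprinted genes spanned a wide range of levels in limb ectoderm, from H19 at a mean of 1223 FPKM over the 6 libraries to Ascl2 at 0.0361 FPKM. Means were over 100 FPKM for 7 genes, between 10 and 100 FPKM for 14, between 1 and 10 FPKM for 9 and under 1 FPKM for 10. The 7 at the top were H19, Mest (346 FPKM), Peg3 (259.5), Grb10 (236), Gnas (213), Nnat (127) and Cd81 (112). The 95th percentile of tested genes was 74.7 FPKM, and 9 of the 40 imprinted genes lay above it. Peg3, Grb10 and Gnas followed each other in that order, and the ranges over the 6 libraries overlapped between neighbours in that order.

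**Figure D1:**
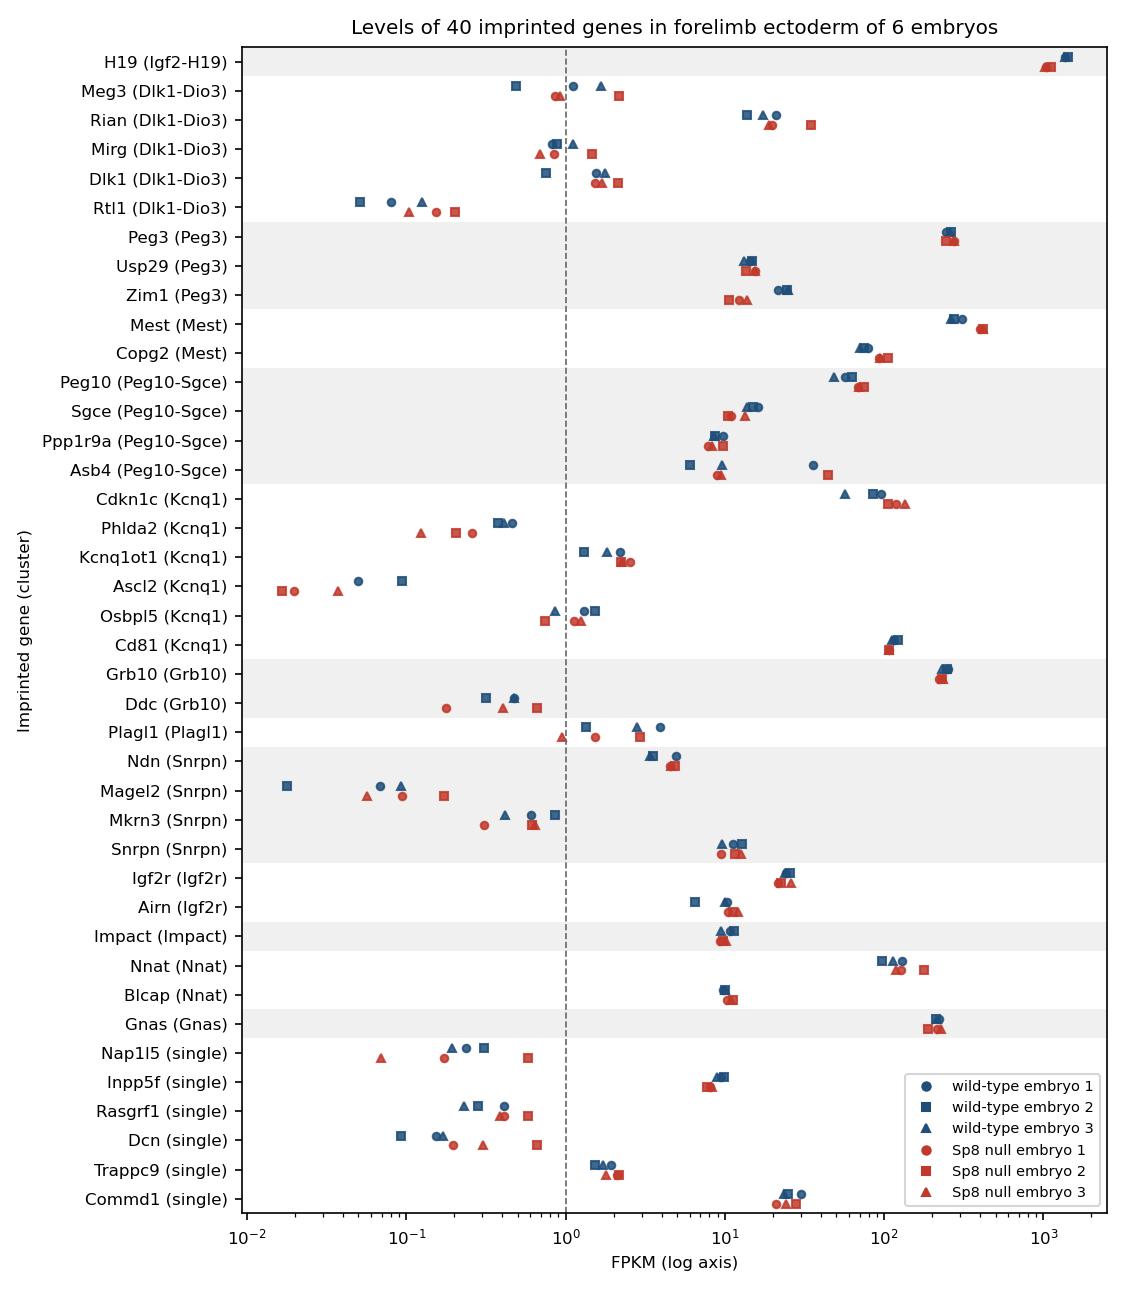
FPKM (log axis) of the 40 imprinted genes, grouped by cluster, in wild-type (blue) and Sp8 null (red) embryos, with 1 symbol per embryo and the dashed line at 1 FPKM. The single value of 0, Ascl2 in wild-type embryo 3, is not drawn; H19 has the highest value in every embryo, and 10 genes have a mean under 1 FPKM.

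Of the 40 genes, 30 passed the filter and 4 were called: Zim1 and H19 lower and Mest and Copg2 higher in Sp8 null. The share called was 13.3% of the tested imprinted genes, against 6.83% of all tested genes. Calls lower in Sp8 null were 5.15% of all tested genes and calls higher 1.68%. At an unadjusted p under 0.05 there were 8 of the 30 imprinted genes, or 26.7%, against 24% of all tested genes. The median log2 fold change of the 30 was 0.06, against -0.06 over all tested genes, and the values ran from -0.91 for Zim1 to 0.62 for Cdkn1c. No log2 fold change reached 1 in size. Values were higher in Sp8 null for 16 of the 30, against 38.7% of all tested genes, for 19 under median-of-ratios scaling, against 51.1%, and for 21 under upper-quartile scaling, against 55.7%. Under upper-quartile scaling 4 imprinted genes were called higher and 1 lower, against 7.12% of all genes called and 2.99% called higher. Under median-of-ratios scaling 5 were called, 3 higher and 2 lower, against 7.13% called and 2.67% called higher. Over all genes 363 of 864 calls were higher under upper-quartile scaling, against 204 of 829 without it. The counts moved with single libraries. Zim1 alone was called without wild-type embryo 2, Zim1 and Mest without Sp8 null embryo 1 or 3 or wild-type embryo 1 or 3, and Zim1, Mest and H19 without Sp8 null embryo 2.

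The Peg3 cluster on chromosome 7 held the largest change. Its 3 listed genes encode the zinc finger proteins Zim1, which is maternally expressed, and Peg3, and the ubiquitin protease Usp29, with Peg3 and Usp29 paternally expressed. Zim1 (ENSMUSG00000002266; chromosome 7, 6671269 to 6696450, minus strand) was at 12.2, 10.6 and 13.8 FPKM in Sp8 null embryos 1, 2 and 3 and at 21.5, 24.6 and 24.8 FPKM in wild-type embryos 1, 2 and 3. Every Sp8 null value was below every wild-type value. The means were 12.2 ± 1.59 and 23.6 ± 1.87 FPKM (SD, n = 3 each), and Zim1 fell by 48.4% in FPKM (log2 fold change -0.91 ± 0.11 SE by limma, adjusted p = 0.00405). Zim1 stayed called in all 16 alternatives, with log2 fold changes from -0.99 to -0.81 and limma adjusted p from 0.00233 to 0.0307.

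Peg3 and Usp29 were not called. Peg3 (ENSMUSG00000002265; chromosome 7, 6703892 to 6730431, minus strand) was at 272, 245 and 274 FPKM in Sp8 null and at 245, 263 and 258 FPKM in wild type, and the groups overlapped (log2 fold change 0.05 ± 0.07 SE by limma, adjusted p = 0.728). Usp29 was at 15.4, 13.6 and 15.5 FPKM and 14.4, 14.8 and 13.2 FPKM, and the groups overlapped (log2 fold change 0.06 ± 0.08 SE by limma, adjusted p = 0.697). The log2 ratio of Usp29 to Peg3, which start from the same stretch of DNA shown above, lay between -4.18 and -4.14 in Sp8 null and between -4.29 and -4.09 in wild type. The ratio of Zim1 to Peg3 does not depend on scaling between libraries. Its log2 value was -4.48, -4.53 and -4.32 in the Sp8 null embryos and -3.51, -3.42 and -3.38 in wild type, a difference of -1.01 with no overlap between the groups. The two-sided exact permutation test gave p = 0.1, the smallest that 3 embryos against 3 allow, and 0.15 after adjustment over the 6 pairs of neighbours compared in this way.

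In the Mest cluster on chromosome 6 both listed genes rose. Mest is a paternally expressed gene for a hydrolase-like protein of mesodermal and other embryonic tissues. Copg2 encodes a coat protein subunit of Golgi transport vesicles, and its maternal expression depends on the tissue. Mest and Copg2 overlap at their ends on opposite strands. Mest (ENSMUSG00000051855; chromosome 6, 30723547 to 30748465, plus strand) was at 402, 416 and 416 FPKM in Sp8 null and at 309.8, 273 and 263 FPKM in wild type. The 3 Sp8 null embryos lay close together and all above the wild-type embryos, with means of 411 ± 7.84 and 282 ± 24.9 FPKM (SD, n = 3 each; log2 fold change 0.55 ± 0.08 SE by limma, adjusted p = 0.00822). The call was lost without wild-type embryo 2 (limma adjusted p = 0.0515, in a range of 0.00227 to 0.0558 over 16 alternatives). Copg2 (ENSMUSG00000025607; chromosome 6, 30747554 to 30896794, minus strand) was at 92.1, 105 and 93.9 FPKM in Sp8 null and at 79.3, 74.1 and 70.4 FPKM in wild type, again without overlap (log2 fold change 0.38 ± 0.08 SE by limma, adjusted p = 0.0347).

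The Copg2 value has limits. Its exons share 912 bases with those of Mest, 17.8% of the exon bases of Copg2, and the use of strand in counting is not given in the sources used here, so reads of Mest and Copg2 in that stretch cannot be told apart. The log2 ratio of Copg2 to Mest was -2.13, -1.98 and -2.15 in Sp8 null and -1.97, -1.88 and -1.90 in wild type, a difference of -0.17 without overlap (exact permutation p = 0.1, adjusted 0.15). The fold changes listed in the authors' deposited table were 1.48 for Mest and 1.11 for Copg2. The Copg2 call was lost when any 1 of the 6 libraries was left out (limma adjusted p from 0.0567 to 0.136) and was strongest under median-of-ratios scaling (0.0126).

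H19, a maternally expressed noncoding RNA of the Igf2-H19 cluster, was the most abundant of the 40 genes. H19 (ENSMUSG00000000031; chromosome 7, 142575529 to 142578143, minus strand) was at 1041, 1109 and 1023 FPKM in Sp8 null and at 1373, 1419 and 1373 FPKM in wild type. The groups did not overlap, and the embryos of each genotype lay close together: 2.9% of tested genes had a lower within-genotype SD. The means were 1058 ± 45.0 and 1388 ± 26.8 FPKM (SD, n = 3 each; log2 fold change -0.39 ± 0.07 SE by limma, adjusted p = 0.0185). The call was lost without Sp8 null embryo 1 or 3 or any 1 wild-type embryo (limma adjusted p from 0.0528 to 0.108), with log2 fold changes between -0.40 and -0.37. It was also lost under upper-quartile scaling (-0.30, limma adjusted p = 0.0529), and the range over the 16 alternatives was 0.0179 to 0.137.

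Igf2, the paternally expressed growth factor that shares enhancers with H19, is not on the list and is given for its place in the cluster. It was at 1688, 1838 and 1838 FPKM in Sp8 null and at 1779, 2442 and 2416 FPKM in wild type. The groups overlapped through wild-type embryo 1 alone (log2 fold change -0.29 ± 0.13 SE by limma, adjusted p = 0.229), and 62.8% of the exon bases of Igf2 also belong to Gm49394 on the same strand. The log2 ratio of H19 to Igf2 was -0.70, -0.73 and -0.84 in Sp8 null and -0.37, -0.78 and -0.82 in wild type, with overlap (exact permutation p = 0.8). Without wild-type embryo 1 the difference in this ratio went from -0.10 to 0.04. Igf2r, the maternally expressed receptor that clears IGF2 protein, was at 21.5, 22.5 and 26.2 FPKM and 24.1, 25.8 and 23.9 FPKM (log2 fold change -0.07 ± 0.09 SE by limma, adjusted p = 0.66), and its sign turned under upper-quartile scaling (0.02).

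**Figure D2:**
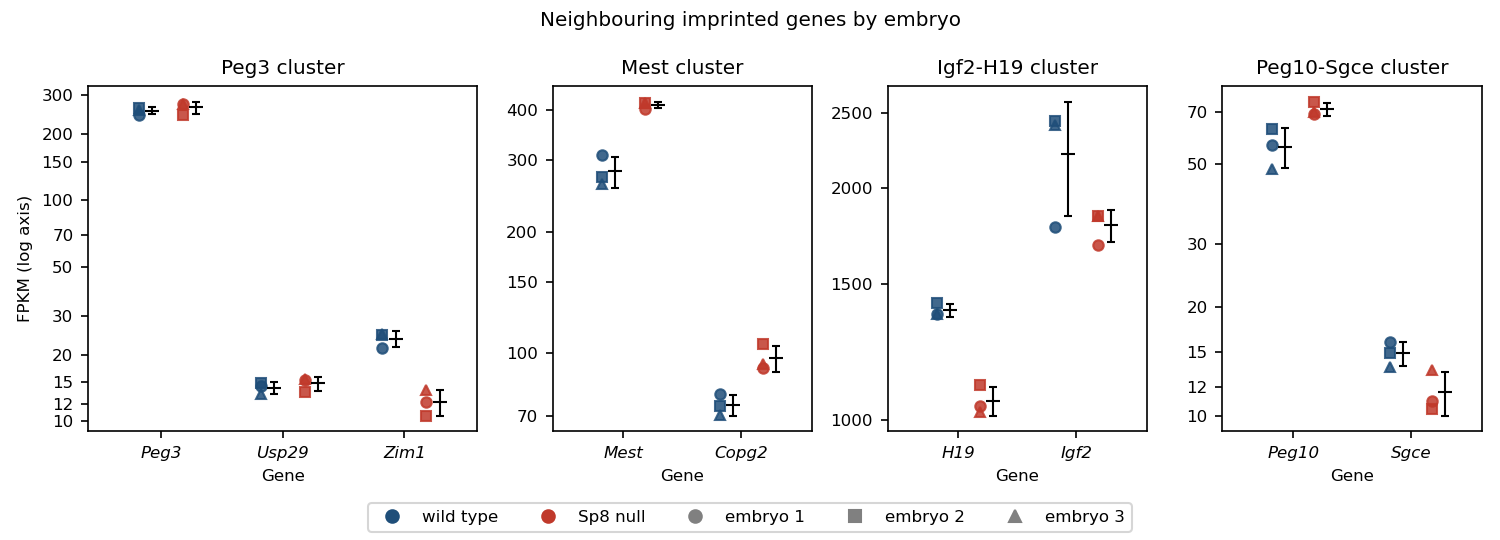
FPKM (log axis) of neighbouring imprinted genes in 4 clusters, with 1 symbol per embryo and black bars for the mean and SD of each genotype (n = 3). Zim1 and H19 are lower and Mest and Copg2 higher in every Sp8 null embryo than in every wild-type embryo, while Peg3 and Usp29 overlap.

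Peg10 and Sgce start head to head on chromosome 6 and are both paternally expressed, and their values differed in opposite directions. Peg10, a retrotransposon-derived gene needed in the placenta, was at 68.9, 74.5 and 69.8 FPKM in Sp8 null and at 56.5, 62.5 and 48.3 FPKM in wild type (log2 fold change 0.35 ± 0.10 SE by limma, adjusted p = 0.0795). Sgce, encoding epsilon-sarcoglycan, was at 10.997, 10.4 and 13.4 FPKM and 16.0, 14.97 and 13.7 FPKM (log2 fold change -0.34 ± 0.11 SE by limma, adjusted p = 0.113). Neither gene was called, although neither overlapped between the groups. The log2 ratio of Sgce to Peg10 was -2.65, -2.84 and -2.38 in Sp8 null and -1.82, -2.06 and -1.82 in wild type, a difference of -0.72 (exact permutation p = 0.1). Peg10 passed the threshold under median-of-ratios scaling (0.42, limma adjusted p = 0.0313) and upper-quartile scaling (0.45, 0.0248), and in the other 14 alternatives it did not, with adjusted p up to 0.3.

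The other 2 listed genes of that region differed in their spread. Ppp1r9a, encoding the actin-binding protein neurabin, was at 7.80, 9.75 and 8.34 FPKM and 9.71, 8.64 and 8.59 FPKM (log2 fold change -0.05, limma adjusted p = 0.785), and turned slightly positive under both other scalings (0.01 and 0.03). Asb4, a substrate adaptor of a ubiquitin ligase, was at 8.90, 44.6 and 9.50 FPKM in Sp8 null and at 35.7, 6.06 and 9.56 FPKM in wild type. Sp8 null embryo 2 and wild-type embryo 1 were each several times above the other embryos of their genotype, and no genotype difference could be resolved (log2 fold change 0.26 ± 0.75 SE by limma, adjusted p = 0.864). Its direction turned without Sp8 null embryo 2 (-0.46) and without wild-type embryo 2 (-0.23).

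In the Kcnq1 cluster on chromosome 7, no gene was called. Cdkn1c, the maternally expressed cyclin-dependent kinase inhibitor p57, had the largest positive log2 fold change of the list, at 119, 106 and 135 FPKM in Sp8 null and 95.2, 85.2 and 56.6 FPKM in wild type. The groups did not overlap, but the wild-type embryos spread widely (log2 fold change 0.62 ± 0.19 SE by limma, adjusted p = 0.0977). With 1 library left out, the Cdkn1c difference ran from 0.40 to 0.77. It fell below that of Mest without wild-type embryo 3 (0.40 against 0.50) and without Sp8 null embryo 3 (0.53 against 0.54). Cdkn1c passed the threshold under upper-quartile scaling (0.72, limma adjusted p = 0.0492) and in none of the other 15 alternatives, with adjusted p up to 0.258. Exons of an antisense gene, Gm44732, cover 30.7% of its exon bases.

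Kcnq1ot1, the paternal noncoding RNA that silences this cluster, was at 2.52, 2.21 and 2.25 FPKM and 2.19, 1.31 and 1.83 FPKM (log2 fold change 0.27 ± 0.14 SE by limma, adjusted p = 0.286). Every Sp8 null value was above every wild-type value, the closest pair being Sp8 null embryo 2 and wild-type embryo 1. Cd81, a tetraspanin, was at 107, 107 and 107 FPKM and 115, 122 and 112 FPKM, lower in Sp8 null without overlap and not called (log2 fold change -0.12 ± 0.06 SE by limma, adjusted p = 0.295). The Cd81 difference was -0.04 under median-of-ratios scaling and -0.02 under upper-quartile scaling. The 3 Sp8 null values of Cd81 differed by less than 1 FPKM. Osbpl5, an oxysterol-binding protein, was at 1.12, 0.745 and 1.24 FPKM and 1.31, 1.53 and 0.856 FPKM, near the filter and with overlap (log2 fold change -0.13 ± 0.16 SE by limma, adjusted p = 0.675). Phlda2, a growth inhibitor of the placenta, and Ascl2, a placental transcription factor, were under the filter. Phlda2 was at 0.260, 0.204 and 0.123 FPKM in Sp8 null and at 0.461, 0.376 and 0.412 FPKM in wild type, with no overlap, and Ascl2 did not exceed 0.0933 FPKM in any library.

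The Dlk1-Dio3 cluster lies on chromosome 12, as Sp8 does, with its listed genes between 9.10 and 9.38 Mb from Sp8. Its maternal noncoding RNAs are Meg3, Rian, which hosts small nucleolar RNAs, and Mirg, which hosts miRNAs. Its paternal genes are Dlk1, a transmembrane inhibitor of differentiation, and the retrotransposon-like Rtl1. Rian was at 19.8, 34.7 and 18.8 FPKM in Sp8 null and at 20.8, 13.8 and 17.4 FPKM in wild type (log2 fold change 0.44 ± 0.24 SE by limma, adjusted p = 0.319). With 1 library left out, the Rian difference ran from 0.17 (without Sp8 null embryo 2) to 0.59 (without Sp8 null embryo 3). Meg3 was at 0.856, 2.16 and 0.926 FPKM and 1.11, 0.487 and 1.66 FPKM (log2 fold change 0.14 ± 0.27 SE by limma, adjusted p = 0.788). Dlk1 was at 1.53, 2.14 and 1.68 FPKM and 1.54, 0.756 and 1.77 FPKM (log2 fold change 0.26 ± 0.19 SE by limma, adjusted p = 0.456).

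No gene of this cluster was called, and Sp8 null embryo 2 had the highest Sp8 null value for all 5. The groups overlapped for all 5 as well. Mirg was at 0.847, 1.46 and 0.686 FPKM and 0.817, 0.878 and 1.12 FPKM and Rtl1 at 0.153, 0.203 and 0.104 FPKM and 0.0797, 0.0510 and 0.125 FPKM, both under the filter. Without wild-type embryo 2, which had the lowest wild-type value of Meg3, Rian, Dlk1 and Rtl1, the Meg3 difference changed sign (-0.08).

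Grb10, a maternally expressed adaptor that dampens insulin and IGF receptor signalling, was at 221, 229 and 234 FPKM in Sp8 null and at 251, 248 and 230.5 FPKM in wild type. The groups overlapped only through Sp8 null embryo 3 and wild-type embryo 3 (log2 fold change -0.09 ± 0.06 SE by limma, adjusted p = 0.449), and the sign turned under upper-quartile scaling (0.01). Its neighbour Ddc, the enzyme that makes dopamine and serotonin from their precursors, was at 0.663 FPKM at most and was not tested.

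Airn, the paternal noncoding RNA that silences Igf2r, was at 10.5, 11.3 and 12.1 FPKM in Sp8 null and at 10.3, 6.50 and 10.03 FPKM in wild type. The groups did not overlap, with wild-type embryo 2 well below the others (log2 fold change 0.33 ± 0.16 SE by limma, adjusted p = 0.267). Airn runs antisense across part of the Igf2r gene, so that unspliced Igf2r reads and Airn reads cannot be told apart without strand. The log2 ratio of Airn to Igf2r was 0.44 higher in Sp8 null, with no overlap (exact permutation p = 0.1).

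The genes of the Snrpn region on chromosome 7, whose human counterpart is tied to Prader-Willi syndrome, were low except for Snrpn, a splicing protein, and Ndn, encoding necdin. Ndn was at 4.54, 4.86 and 4.61 FPKM and 4.91, 3.54 and 3.41 FPKM (log2 fold change 0.21 ± 0.13 SE by limma, adjusted p = 0.376). Snrpn was at 9.39, 11.5 and 12.7 FPKM and 11.2, 12.8 and 9.62 FPKM (log2 fold change 0.00 ± 0.14 SE by limma, adjusted p = 0.989), and its difference of near 0 turned positive under both other scalings (0.06 and 0.08). Snrpn shares 27.3% of its exon bases with Gm38393 and a smaller part with Snurf, both on the same strand. Magel2 and Mkrn3 were not tested, with highest values of 0.172 and 0.859 FPKM.

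Nnat, a small membrane protein of the endoplasmic reticulum, sits in an intron of Blcap, a gene named after bladder cancer. Nnat was at 127, 177 and 118 FPKM in Sp8 null and at 130.3, 96.4 and 113 FPKM in wild type, with overlap (log2 fold change 0.30 ± 0.17 SE by limma, adjusted p = 0.332). With 1 library left out, the Nnat difference ran from 0.12 (without Sp8 null embryo 2) to 0.41 (without Sp8 null embryo 3). Blcap was at 10.3, 11.3 and 10.971 FPKM and 9.77, 9.95 and 9.96 FPKM, higher in every Sp8 null embryo but by little (log2 fold change 0.12 ± 0.07 SE by limma, adjusted p = 0.359).

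Gnas, the stimulatory G protein alpha subunit, was at 215, 189.5 and 228 FPKM and 220.3, 213 and 214 FPKM, with overlap (log2 fold change -0.04 ± 0.08 SE by limma, adjusted p = 0.826) and with a sign that turned under both other scalings (0.04 and 0.06). Plagl1, a zinc finger protein that acts on other imprinted genes, was at 1.52, 2.94 and 0.949 FPKM and 3.89, 1.35 and 2.79 FPKM, with overlap (log2 fold change -0.39 ± 0.33 SE by limma, adjusted p = 0.522). Impact, a translational regulator on chromosome 18, was at 9.25, 9.69 and 10.1 FPKM and 10.8, 11.4 and 9.40 FPKM, with overlap (log2 fold change -0.11 ± 0.09 SE by limma, adjusted p = 0.531). None of these genes was called.

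Of the 6 remaining genes, which have no listed neighbour, 3 were tested. Inpp5f, a phosphoinositide phosphatase, was at 8.11, 7.77 and 8.25 FPKM in Sp8 null and at 9.47, 9.84 and 8.94 FPKM in wild type. All Sp8 null values were below the wild-type values, and the gene was not called (log2 fold change -0.20 ± 0.08 SE by limma, adjusted p = 0.163). Trappc9, of a vesicle tethering complex, was at 2.09, 2.16 and 1.80 FPKM and 1.92, 1.54 and 1.71 FPKM (log2 fold change 0.15 ± 0.11 SE by limma, adjusted p = 0.463). Commd1, a copper and NF-kappa-B regulator, was at 20.9, 28.1 and 24.1 FPKM and 29.9, 24.9 and 23.4 FPKM (log2 fold change -0.10 ± 0.13 SE by limma, adjusted p = 0.697), with a sign that turned without Sp8 null embryo 1 (0.01). Under the filter, Dcn, the matrix proteoglycan decorin, was at 0.198, 0.659 and 0.302 FPKM and 0.153, 0.0931 and 0.170 FPKM, with no overlap. Nap1l5, a nucleosome assembly protein, and Rasgrf1, a Ras exchange factor, did not exceed 0.577 and 0.579 FPKM. Over the 10 untested genes, values ran from 0 to 1.46 FPKM.

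**Figure D3:**
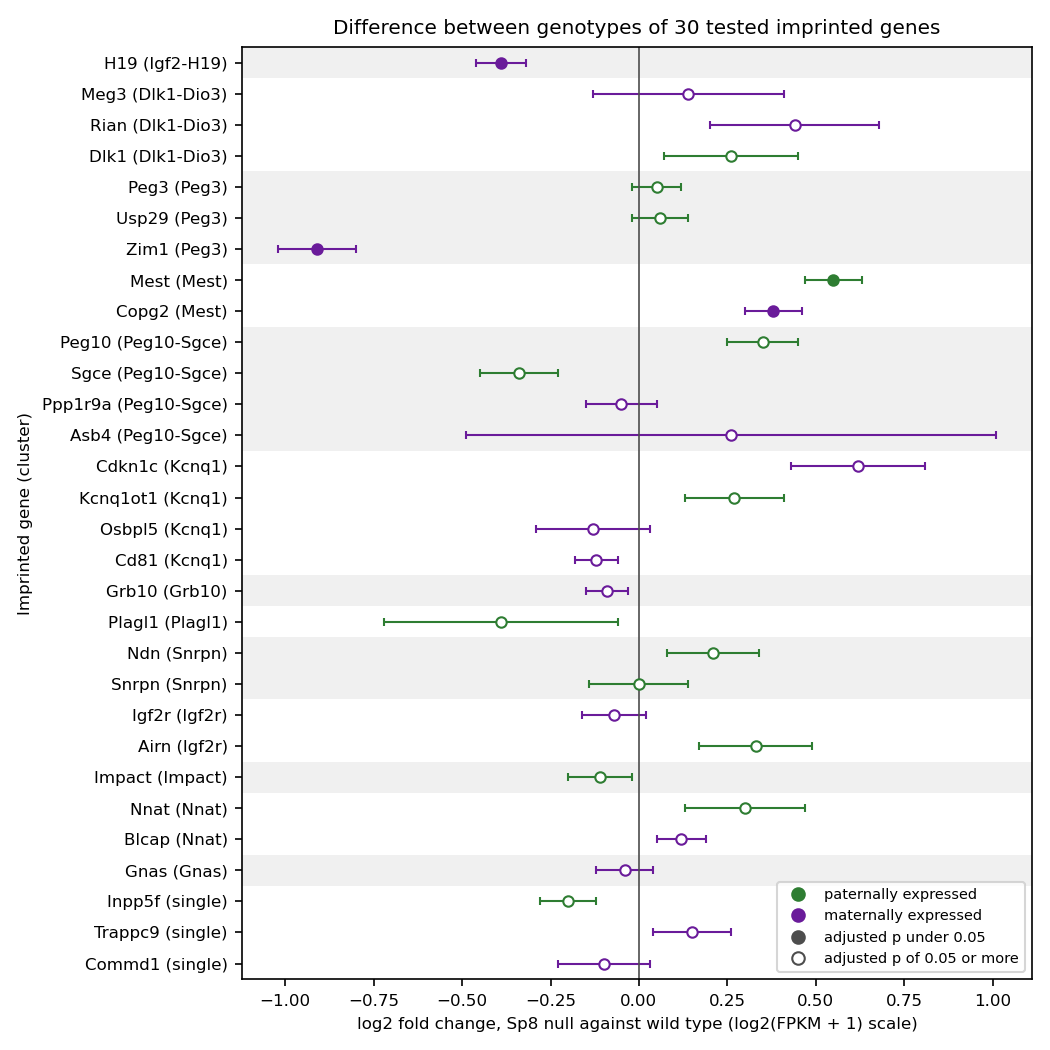
Log2 fold change (Sp8 null against wild type, log2(FPKM + 1) scale) with its standard error for the 30 tested imprinted genes, in green for paternally and purple for maternally expressed genes, filled where the adjusted p is under 0.05. Zim1, H19, Mest and Copg2 are filled, and Asb4 has the widest error.

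Parental class did not sort the differences into a single direction. Of 14 tested paternally expressed genes, 1 was called (Mest, higher). Of 16 tested maternally expressed genes 3 were called (Copg2 higher, Zim1 and H19 lower). The shares were 7.14% and 18.8%, against 6.83% of all tested genes. The maternal class includes Copg2, Ppp1r9a, Asb4, Osbpl5, Cd81, Blcap, Gnas, Trappc9 and Commd1, whose maternal expression depends on the tissue. It also includes Grb10, which is paternal in neurons. The paternal expression of Inpp5f depends on the tissue as well. Which class holds in limb ectoderm was not tested. The medians of the paternal and maternal classes were 0.14 and -0.04, and under upper-quartile scaling 0.22 and 0.05. Across both classes 12 of the 30 genes had groups that did not overlap, 7 of them higher and 5 lower in Sp8 null. The background shares were 29.8% of all tested genes, 8.63% higher and 21.1% lower.

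Variation among embryos of the same genotype differed strongly between imprinted genes. The pooled within-genotype SD of log2(FPKM + 1) had a median of 0.14 over the 30 genes, against 0.13 over all tested genes. Spread was widest for Asb4 (1.24), Plagl1 (0.53), Meg3 (0.43) and Rian (0.39), all within the top 5% of tested genes. It was narrowest for Cd81, Blcap, H19, Inpp5f and Grb10, at 0.05 to 0.06. So within the Peg10-Sgce region Asb4 lay at the top of the range, while the SD of Ppp1r9a was 0.12, that of Peg10 0.14 and that of Sgce 0.15.

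Several of the widely spread genes were high in the same embryos. Sp8 null embryo 2 exceeded the mean of the other Sp8 null embryos by 2.16 for Asb4, 0.83 for Plagl1, 0.81 for Rian, 0.74 for Meg3, 0.53 for Nnat and 0.27 for Dlk1 on the log2 scale. Wild-type embryo 1 exceeded the other wild-type embryos by 2.09 for Asb4, 0.71 for Plagl1, 0.40 for Rian and 0.32 for Nnat, but by 0.09 for Meg3. Cdkn1c, the fifth in spread (0.30), went the other way in Sp8 null embryo 2 (-0.26) and was higher in wild-type embryo 1 (0.45). Over all 30 genes, 14 (46.7%) had their highest Sp8 null value in embryo 2, against 30.5% of all tested genes, and 16 (53.3%) their highest wild-type value in embryo 1, against 45.8%. Limb mesenchyme markers were high in the same libraries: 14 of 18 were highest in embryo 2 among the Sp8 null embryos and 16 of 18 in embryo 1 among the wild-type embryos. The summed mesenchyme level was 218, 341 and 205 FPKM in Sp8 null embryos 1, 2 and 3 and 255, 189 and 202 FPKM in wild-type embryos 1, 2 and 3. Ectoderm markers were lowest in Sp8 null embryo 2, at 978 FPKM.

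Erythroid markers followed another order. They summed to 429 FPKM in wild-type embryo 1, where 11 of 12 had their highest wild-type value (Hbb-bs was at 0 in all 3), and to 63.1 FPKM in Sp8 null embryo 2, the lowest of the Sp8 null embryos. All 9 macrophage markers were under 1 FPKM in every library, as were 10 of 11 endothelial and 7 of 10 neural crest markers.

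With the mean mesenchyme level as a covariate, the within-genotype SD went from 1.24 to 0.31 for Asb4, from 0.53 to 0.24 for Plagl1, from 0.39 to 0.06 for Rian and from 0.27 to 0.05 for Nnat. It went from 0.43 to 0.31 for Meg3 and from 0.30 to 0.35 for Cdkn1c. The same covariate left Zim1, H19, Mest and Copg2 called. With Sp8 null embryo 2 and wild-type embryo 1 both left out, Zim1 (-0.88, limma adjusted p = 0.0101) and Mest (0.61, 0.0251) were called, and H19 (-0.44, 0.0977) and Copg2 (0.36, 0.132) were not. Both of these alternatives were chosen after the data were seen. Beyond these values, the part of the mesenchyme level in the spread was not tested. In ectoderm as in any bulk sample, more cells of a type and more RNA per cell cannot be told apart.

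**Figure D4:**
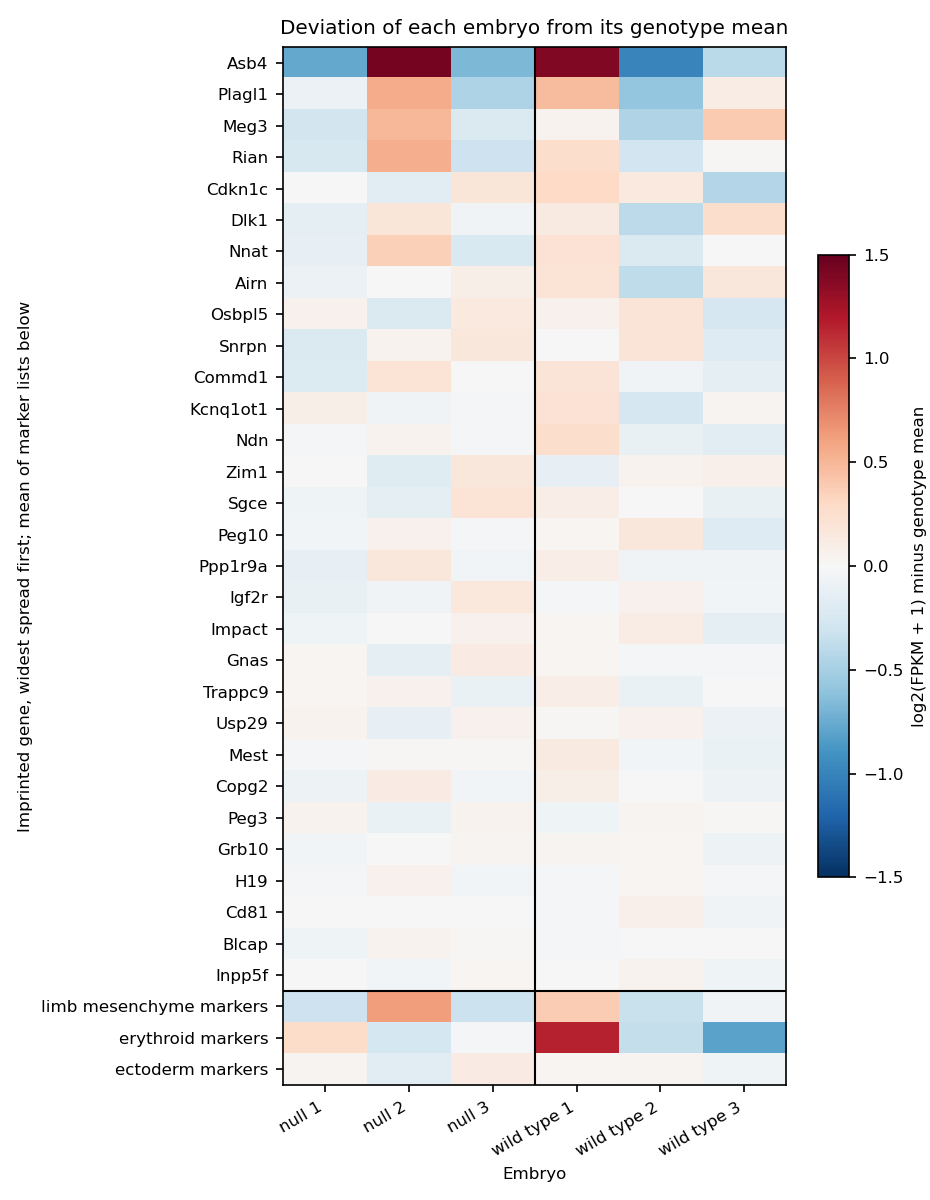
Deviation of each embryo from the mean of its genotype in log2(FPKM + 1), from blue (lower) to red (higher), for the 30 tested imprinted genes in order of spread, with the means of 3 marker lists below the line. Asb4, Plagl1 and Rian are red in Sp8 null embryo 2 and wild-type embryo 1, as is the mesenchyme list.

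Imprinted genes outside the list were read for comparison. Of 35 others, 13 were tested and 1 was called, a share of 7.69% beside the 6.83% of all tested genes. This was Pon2, a lactonase of the Peg10-Sgce region, at 10.3, 9.11 and 10.5 FPKM in Sp8 null and 15.9, 19.6 and 19.2 FPKM in wild type, with no overlap (log2 fold change -0.81 ± 0.10 SE by limma, adjusted p = 0.00516). Pon2 stayed called in all 16 alternatives. Slc38a4, an amino acid carrier, was not called (log2 fold change -0.41 ± 0.11 SE by limma, adjusted p = 0.0591), but passed the threshold with the mesenchyme level as a covariate (-0.36, 0.0414). The median over the 13 was -0.03. The last list was of imprint maintenance genes, with Dnmt3a, Dnmt3b, Tet1, Tet2 and Tet3 among them. Of its 20 genes, 18 were tested and none was called by limma. An unadjusted limma p under 0.05 was found for 3 of 18, against 24% of all tested genes. Values were higher in Sp8 null for 4 and lower for 14, against 38.7% of all tested genes higher. The median log2 fold change of the list was -0.10, against -0.06 over all tested genes. Under median-of-ratios or upper-quartile scaling, 9 of the 18 were higher. The ZFP57 gene Zfp57 was at 8.22, 10.5 and 11.8 FPKM and 10.3, 9.76 and 9.86 FPKM (log2 fold change 0.01 ± 0.12 SE by limma, adjusted p = 0.966), and the maintenance methyltransferase Dnmt1 at 45.0, 53.0 and 52.9 FPKM and 54.9, 59.3 and 53.8 FPKM (log2 fold change -0.16 ± 0.08 SE by limma, adjusted p = 0.316). Uhrf1, which recruits Dnmt1, had the smallest adjusted p of the list (log2 fold change -0.34 ± 0.09 SE by limma, adjusted p = 0.0717), and it was called without Sp8 null embryo 3 (-0.43, 0.0256).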

How the data were processed

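Polyadenylated RNA from the forelimb ectoderm of 3 Sp8 null and 3 wild-type embryos was sequenced from TruSeq libraries. Per the submitters' processing notes, FastQC, TopHat2, SAMtools, Cufflinks and DESeq2 were used with GRCm38; versions and the use of strand are not given in the sources used here. The deposited table gives FPKM per gene and library for Ensembl build 87 genes, per the file headers. It also holds the authors' mean normalized signal per genotype, their fold change as a signed score (negative where Sp8 null is lower) and their p-value. The authors' values are quoted only where named. Of 49452 gene identifiers, 49109 were matched to GENCODE M21 for positions and exon overlap.

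The filter kept genes that reached 1 FPKM in 3 or more libraries. Log2(FPKM + 1) was fitted by genotype with limma 3.58.1 (R 4.3.3, mean-variance trend), and p-values were adjusted by Benjamini-Hochberg over all 12133 genes tested. A fold change on this scale understates that of low genes. The script was checked on simulated data. Ratios between neighbouring genes were compared by two-sided exact permutation tests, for which 0.1 is the smallest p with 3 against 3. The numbers of the replicates did not pair the embryos (correlations of deviations of -0.164, -0.145 and -0.07), so no block was used. Read counts were not used here, so depth was read only in relative terms from the steps of low FPKM values, with no counting interval. Alternatives were another pseudocount, other filters and scalings, the leading number of the sample names (4 or 5, with no meaning given) as a covariate, the replicate block, leaving out each library, and 2 that concern the mesenchyme level. By rule, all 40 imprinted genes were accounted for, those that passed the filter with every library's value, and from the further lists the called genes were named, with Igf2 for its place beside H19 and Sp8 as the check of the labels. Slc38a4, Zfp57, Dnmt1 and Uhrf1, and values of single genes under the filter, fall outside this rule and were chosen after their values were seen. The members and lists were chosen with earlier results of these data known.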

Additional observations from a re-analysis of the deposited data

How the results depend on the processing

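All genes called numbered 829 and became 342 with no filter, 545 with the leading number as a covariate, 328 with the replicate block, 270 with both libraries of the highest mesenchyme level left out, and 213 to 665 when each library was left out in turn. The 4 imprinted genes called became 2 with no filter (1 higher, 1 lower), 1 with the replicate block (0 higher, 1 lower), 2 with those libraries left out (1 higher, 1 lower) and 1 to 3 when each library was left out (0 to 1 higher, 1 to 2 lower). Calls of higher genes numbered 4 and of lower genes 1 under upper-quartile scaling, and 1 higher gene was called with the leading number as a covariate. The other imprinted genes called went from 1 to 2 with the mesenchyme level as a covariate and stayed at 1 when each library was left out, and the imprint maintenance genes called ranged from 0 to 1. The median log2 fold change of the imprinted genes ran from 0.01 to 0.07 and their median spread from 0.11 to 0.16 when each library was left out. The median log2 fold change was 0.13 under median-of-ratios and 0.15 under upper-quartile scaling, against 0.01 and 0.03 over all tested genes. It was -0.00 at a mean of at least 5 FPKM and 0.00 with the mesenchyme level as a covariate.

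Of 469 values of single imprinted genes over 16 alternatives, 425 kept their direction and side of the threshold, 21 lost a call, 3 gained one and 20 changed sign, the last in 9 genes and none of the 4 called. Under the replicate block Mest (limma adjusted p = 0.0558), H19 (0.137) and Copg2 (0.124) lost the call and Zim1 kept it (0.0143). With no filter H19 (limma adjusted p = 0.107) and Copg2 (0.0896) lost it. With the leading number as a covariate Copg2 lost it (limma adjusted p = 0.0645). Copg2 was not called in 10 of the 16 alternatives and H19 in 9. Under median-of-ratios scaling the sign turned for Ppp1r9a (0.01), Snrpn (0.06) and Gnas (0.04). Under upper-quartile scaling it turned for Ppp1r9a (0.03), Grb10 (0.01), Snrpn (0.08), Igf2r (0.02) and Gnas (0.06). When 1 library was left out it turned for Meg3 (-0.08), Ppp1r9a (0.01), Asb4 (-0.46 and -0.23), Snrpn (0.11 and 0.09), Gnas (0.04), Commd1 (0.00 and 0.01) and the log2 ratios Usp29 to Peg3 (-0.04) and H19 to Igf2 (0.04). The far ends of these leave-one-out ranges were 0.28 for Meg3, -0.14 for Ppp1r9a, 0.96 for Asb4, -0.10 for Snrpn, -0.09 for Gnas, -0.20 for Commd1 and -0.18 for the ratio of H19 to Igf2. The mesenchyme covariate turned Asb4 (-0.22), and leaving out both high-mesenchyme libraries turned Osbpl5 (0.01) and Gnas (0.06). The causes were not tested. With 3 embryos a genotype and no counts, changes as small as those of H19 and Copg2 lie at the edge of what was called, and genes under 1 FPKM were not tested.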

Other observations

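The authors' deposited table can be set beside the FPKM values, since both come from the same libraries. Of the 30 tested imprinted genes, 26 had the same direction in the authors' deposited table and 4 the other (Ppp1r9a, Snrpn, Gnas and Commd1), and 15 of the 30 had a p under 0.05 there, against 31.3% of all 12133 tested genes. Gnas stood out among these: its fold change in the authors' deposited table was 1.37 (p = 0.000892) with mean signals of 223.53 in wild type and 317.12 in Sp8 null. For Grb10, at a like FPKM, the authors' deposited table gave mean signals of 45409.4 and 43547.8. In FPKM, Gnas was at 216 ± 4.07 in wild type and 211 ± 19.8 in Sp8 null (SD, n = 3 each). H19, Zim1, Mest and Copg2 had the same direction and a p under 0.05 in both; the authors' deposited table listed fold changes of -1.21 for H19 and -1.79 for Zim1.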
